A study of Mus musculus with 38 samples.

Results

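The widest H3K27ac domains of IκBα-WT mouse embryonic stem cells (mESCs) were 1460 of 54435 acetylated pieces on chromosomes 1 to 19. They were chosen on the H3K27ac calls of the 3 IκBα-WT libraries: a consensus was formed from the bases called in at least 2 of these 3 lists, touching stretches were joined, and pieces of 30 kb or more were kept. These 2.68% of the pieces held 18.8% of the consensus bases, 70.3 Mb in all. Because the choice rested on H3K27ac in the IκBα-WT libraries, H3K27ac over the domains is described below without a test, and a test is given only for H3K4me1, which took no part in the choice.

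ChIP-seq of H3K27ac, H3K4me1, H3K4me3, H3K27me3 and H3K9me3 had been done in cells of the ES-E14TG2a line, with 3 IκBα-WT and 3 IκBα-KO libraries for each modification. All cells were grown in medium with serum and leukaemia inhibitory factor (LIF) and taken at 0 h, before any differentiation. In the IκBα-KO cells Nfkbia, the gene of the NF-κB inhibitor IκBα, had been edited with Cas9 and a pair of guides to exon 1, while the IκBα-WT cells had received scrambled guides. The study's checklist states that every experiment used 3 independent clones per genotype, while its ChIP-seq methods speak only of 3 biological replicates. Each library is taken here as a clone, so that a difference between genotypes is one between 3 clones and 3 clones.

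H3K27ac is written by the acetyltransferases p300 and CBP and marks active promoters and enhancers. Where many active elements lie close together the acetylated sequence runs into wide domains, and in mESCs such domains are known around pluripotency genes, many of them bound by Oct4, Sox2, Klf and Esrrb proteins. H3K4me1 marks enhancers whether or not they are active, and H3K4me3 is found mainly at the starts of active or primed genes.

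The H3K27ac lists held 44343 to 56922 regions on chromosomes 1 to 19 and 22753066 to 28105919 ChIP reads in them. H3K27ac and H3K4me1 shared 1 input library per genotype, so an input ratio sets 1 library against 1 and does not resolve single clones. In 3 chromosome segments the input DNA of the genotypes differed. Over the domains in them, the median log2 ratio of IκBα-KO to IκBα-WT input reads was 0.46 on chromosome 2 between 165 and 171 Mb (9 domains), 0.46 on chromosome 8 between 40 and 129 Mb (61 domains) and −1.10 on chromosome 12 between 103 and 119 Mb (11 domains). Over the other 1379 domains the median was −0.06 and the range −0.64 to 0.15. Results are given with and without these segments.

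Of 5 mESC marker genes, Pou5f1, Sox2, Nanog and Zfp42 had H3K27ac at the 5′ end in all 6 lists and no H3K27me3 there in any. The annotated 5′ end of Esrrb lacked H3K27ac in all 6 lists and carried H3K27me3 in all 6, although a domain of 79.2 kb lay over the body of this gene. Of 10 regulators of other cell types, among them Gata6, Cdx2 and Pax6, all 10 carried H3K27me3 in all 6 lists, and 7 carried H3K27ac as well.

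The promoter sequences of 6 genes whose start lay in a domain are printed to show the kind of sequence that the domains enclose: the genes of the 2 widest domains (Enah and Msi2), the core pluripotency genes Pou5f1 and Sox2, the naive pluripotency gene Klf2, and the targeted gene Nfkbia. Each runs 5′ to 3′ on the strand of its gene, from 250 bases before to 30 bases after the start, as annotated by RefSeq on GRCm38.p6. The positions are chr1:182019951-182020230 (minus strand) for Enah, chr11:88718248-88718527 (minus strand) for Msi2, chr17:35505782-35506061 (plus strand) for Pou5f1, chr3:34649745-34650024 (plus strand) for Sox2, chr8:72318812-72319091 (plus strand) for Klf2 and chr12:55492618-55492897 (minus strand) for Nfkbia. Capitals mark matches, on either strand, to 7 motifs: an octamer (ATGCAAAT), a Sox motif (ACAATGG), an Esrrb motif (TCAAGGTCA), a Klf motif (GGGTGTGG), a GC box (GGGCGG), an E-box (CACGTG) and a κB motif (GGNNNTTCC).
Enah: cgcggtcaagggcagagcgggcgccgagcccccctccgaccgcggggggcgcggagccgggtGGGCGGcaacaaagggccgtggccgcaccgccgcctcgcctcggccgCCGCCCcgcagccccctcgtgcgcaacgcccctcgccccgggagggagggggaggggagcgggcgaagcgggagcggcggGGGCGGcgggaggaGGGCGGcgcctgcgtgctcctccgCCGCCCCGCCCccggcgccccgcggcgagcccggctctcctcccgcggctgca
Msi2: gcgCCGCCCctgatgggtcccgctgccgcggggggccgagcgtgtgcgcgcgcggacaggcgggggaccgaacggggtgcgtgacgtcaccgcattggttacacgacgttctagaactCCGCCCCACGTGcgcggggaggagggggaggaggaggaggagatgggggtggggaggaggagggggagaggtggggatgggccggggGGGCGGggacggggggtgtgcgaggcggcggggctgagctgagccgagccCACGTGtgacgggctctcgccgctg
Pou5f1: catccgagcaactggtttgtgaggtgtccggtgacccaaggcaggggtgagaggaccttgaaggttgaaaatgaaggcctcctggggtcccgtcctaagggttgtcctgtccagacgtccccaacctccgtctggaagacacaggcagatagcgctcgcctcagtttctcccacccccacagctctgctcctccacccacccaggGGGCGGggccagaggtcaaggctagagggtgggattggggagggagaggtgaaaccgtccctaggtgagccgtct
Sox2: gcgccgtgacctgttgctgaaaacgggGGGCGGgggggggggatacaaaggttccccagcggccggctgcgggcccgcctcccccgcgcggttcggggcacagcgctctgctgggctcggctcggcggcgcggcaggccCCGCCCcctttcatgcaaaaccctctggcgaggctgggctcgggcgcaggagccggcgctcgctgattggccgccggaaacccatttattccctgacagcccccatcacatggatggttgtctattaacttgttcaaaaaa
Klf2: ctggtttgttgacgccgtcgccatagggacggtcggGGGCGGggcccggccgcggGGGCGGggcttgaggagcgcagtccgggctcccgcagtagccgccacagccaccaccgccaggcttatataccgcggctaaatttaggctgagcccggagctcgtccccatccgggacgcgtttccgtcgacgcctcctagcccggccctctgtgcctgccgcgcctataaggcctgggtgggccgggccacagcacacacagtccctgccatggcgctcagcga
Nfkbia: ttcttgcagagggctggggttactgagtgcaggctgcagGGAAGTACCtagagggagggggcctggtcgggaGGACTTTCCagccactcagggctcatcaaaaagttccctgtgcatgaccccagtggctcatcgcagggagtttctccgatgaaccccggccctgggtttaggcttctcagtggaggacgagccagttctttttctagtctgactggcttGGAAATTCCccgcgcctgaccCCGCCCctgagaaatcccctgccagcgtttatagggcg

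The GC box, the binding letters of Sp and Klf family factors, was the most frequent motif in these windows. It matched 6 times in the Enah promoter, 3 times in that of Msi2, 2 times each in those of Sox2 and Klf2, and once each in those of Pou5f1 and Nfkbia. The Msi2 promoter also held 2 E-boxes. The Nfkbia promoter held 3 κB matches, and Nfkbia is known as a target gene of NF-κB. No octamer, Sox, Esrrb or Klf match lay in the 6 windows. Pou5f1 and Msi2 had further annotated starts in their domains, which are not printed. The further Pou5f1 window (chr17:35508557-35508836) held 1 Sox match and no GC box. Further Msi2 windows held 2 or 3 GC boxes and 2 E-boxes. For shares over all promoters, 1 RefSeq window was kept per gene symbol, the one with the lowest coordinate. Of 1811 such promoters with the start in a domain, 54.6% held a GC box, against 35.0% of all 25748 on chromosomes 1 to 19. The shares were 9.39% and 6.77% for the E-box, 18.7% and 17.5% for the κB motif, 4.47% and 3.47% for the Klf motif, 1.93% and 1.70% for the octamer, 2.10% and 3.40% for the Sox motif and 0.0552% and 0.404% for the Esrrb motif. Promoters in domains were richer in G and C, with a median of 58.9% against 52.5%, and held a median of 16 CpG against 7. The part of base composition in the motif shares was not tested. Of 1660 gene symbols with a start in a domain, 1267 had an entry in the promoter table.

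The domains had a median width of 41200 bp. Of the 1460, 455 were 50 kb or wider, 45 were 100 kb or wider and 5 were 150 kb or wider. The widest pair, each of 204200 bp, covered Enah (chr1:181893401-182097600), which encodes an actin regulator, and Msi2 (chr11:88520801-88725000), which encodes an RNA-binding protein of stem cells. Next came a domain of 178000 bp inside Tns3, which encodes a focal adhesion protein, one of 156400 bp over Pitpnc1 and the proteasome gene Psmd12, and one of 155200 bp over the importin gene Kpnb1. Others of the 10 widest covered Fnbp1 and Gpr107 (145800 bp), Zfp532 (144000 bp), Sall1 (143800 bp, in the segment of chromosome 8), and Fgfr2 with Ctbp2 (139600 bp). Sall1 encodes a zinc finger factor present in mESCs and Fgfr2 a receptor for fibroblast growth factors.

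At the lower limit, 92 domains measured 30 kb to under 31 kb and 102 excluded pieces measured 29 kb to under 30 kb. The 3 narrowest domains lay over Pea15a, Madcam1 and Top3a, each of exactly 30000 bp, and the 3 widest excluded pieces lay over Zfp451, over Ptpn14 and Smyd2, and over Pafah1b1, each of 29800 bp. H3K27ac in the 3 IκBα-WT lists ran from 61.7 to 68.0 reads per kb in the Pea15a domain, from 98.1 to 109.0 in that of Madcam1 and from 59.2 to 63.4 in that of Top3a.

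Most domains lay over genes. Of the 1460, 555 held the 5′ end of 1 protein-coding gene, 379 held those of 2 or more (at most 11), and 526 held none. Among the latter, 410 lay over a gene body and 116 over none, and 269 domains lay wholly inside 1 gene. A median of 82.3% of a domain lay in gene bodies. In all, 1665 of 20807 protein-coding genes (8.00%) started in a domain, while 59.4% started in a piece of any width. The 8.00% is the share to set beside the counts of listed genes below.

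Other wide domains held no gene body at all. The domain of 129800 bp at chr15:62062801-62192600 ended 77410 bp from the start of Myc, the growth regulator, and a domain of 89200 bp lay 82514 bp from the start of its relative Mycn. A domain of 84600 bp lay 16674 bp from Jarid2, which encodes a cofactor of Polycomb repressive complex 2 (PRC2). The other 2 of the 5 widest of this kind were a domain of 87200 bp at 40679 bp from Med13l, a gene of the Mediator kinase module, and one of 79800 bp at 149188 bp from Klf3. Over the 116 domains without a gene body the median distance to the nearest 5′ end was 39905 bp.

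Of the pluripotency genes, 2 of 3 core genes (Pou5f1 and Sox2) and 10 of 26 naive genes (Klf2, Mycn, Klf5, Tfcp2l1, Sall4, Fgf4, Tbx3, Rif1, Dppa2 and Zfp281) started in a domain. The widest was that of Klf2, at 100000 bp, followed by those of Mycn (86000 bp), Klf5 (72000 bp) and Tfcp2l1 (60000 bp). All 4 are genes of transcription factors on the list of naive genes, and Mycn is also on that of growth and cell cycle genes. Nanog, the remaining core gene, started in a piece of 12400 bp that lay 42712 bp from the nearest domain, and Klf4 in one of 7800 bp. Of 18 lineage regulators, among them those of endoderm and neural cells, none started in a domain, 14 started in a narrower piece and 4 in none. For a list of 18, none in a domain is near the share of all protein-coding genes. Nor was a start in a domain particular to pluripotency genes, with 38.5% of the naive genes and 46.2% of the housekeeping genes listed.

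Chromatin regulators were also found. Among the DNA methylation genes they were 6 of 9: the methyltransferase genes Dnmt1 and Dnmt3b, the cofactor genes Dnmt3l and Uhrf1, and the demethylation genes Tet1 (109200 bp) and Tet2. Among the enzymes and cofactors of H3K4 methylation they were 7 of 12, with Kdm5b (87000 bp), a demethylase, and Kmt2b (80600 bp), a methyltransferase, in the widest. Polycomb genes gave 5 of 15 (Jarid2, Phc1, Mtf2, Suz12 and Eed) and histone acetylation genes 7 of 17, with the acetyltransferase gene Kat6b (126400 bp) in the widest.

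Genes of signalling and growth followed. Of 12 genes of the LIF and STAT3 pathway, which maintains mESCs, Pim3, Socs3, Junb and Bcl3 started in a domain. Of 20 genes of the Nodal, TGF-β and BMP pathways 5 did, among them the inhibitory gene Smad6 (70000 bp) and the ligand gene Nodal (40600 bp). Growth and cell cycle genes gave 7 of 12, the widest being Max (131400 bp), which encodes the partner of Myc proteins. Housekeeping genes gave 6 of 13, the widest being Gapdh (94200 bp). Of 12 NF-κB subunits and inhibitors, Nfkbia (64000 bp), Relb (42600 bp) and Bcl3 (30800 bp) started in a domain.

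The next question was whether the domains kept their width and density in IκBα-KO cells. Of the domain bases, 98.1% lay in the IκBα-KO consensus, made in the same way from the 3 IκBα-KO lists (98.5% outside the segments, 92.7% within them). The pieces under 30 kb were covered to 84.9%. Of the 1460 domains, 813 were covered entirely, 57 to less than 90% and 13 to less than 50%, 9 of these 13 in the segments. By comparison, when domains were formed from 2 IκBα-WT lists, the IκBα-WT list left out covered 98.2%, 98.3% or 98.8% of their bases, and the single IκBα-KO lists covered 98.4% to 98.8%. An IκBα-WT list that had no part in the choice and an IκBα-KO list thus covered the domains to a like extent.

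The IκBα-KO pieces that touched a domain often ran beyond it. They were wider in sum than the domain in 1109 cases, narrower in 271 and equal in 80, with a median ratio of 1.10 (1.08 outside the segments, 1.54 within them). Since the domains were chosen on their IκBα-WT width, the same ratio was taken in lists outside the choice. For domains formed from 2 IκBα-WT lists its median was 1.08, 1.09 or 1.12 in the IκBα-WT list left out and 1.21 to 1.26 in the IκBα-KO lists. Nfkbia is an example, with a domain of 64000 bp and an IκBα-KO piece of 118400 bp. Widths were 156400 and 253400 bp at Pitpnc1, 204200 and 238200 bp at Msi2, and 30200 and 90800 bp at Zfp281, whereas Tns3 had 178000 bp in both genotypes.

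Counted in each list by itself, regions of 30 kb or more on chromosomes 1 to 19 numbered 1189, 1257 and 1437 in the IκBα-WT lists and 1985, 2120 and 2086 in the IκBα-KO lists, so that the genotypes did not overlap. The means differed by 769 regions. No test is given, since the width of H3K27ac calls chose the domains. Without the segments the numbers were 1125, 1183 and 1361 against 1748, 1849 and 1819. Wider calls were not limited to such regions. The median width of all H3K27ac regions was 4200, 4200 and 4800 bp in the IκBα-WT lists and 5000, 5200 and 5600 bp in the IκBα-KO lists. All regions together covered 378.4, 377.1 and 389.1 Mb against 406.8, 415.6 and 411.9 Mb. The IκBα-KO consensus held 2270 pieces of 30 kb or more, of which 1263 (55.6%) touched an IκBα-WT domain and 1007 did not. Of the bases of the IκBα-WT domains 88.8% lay in IκBα-KO pieces of such width, and of the bases of the latter 53.2% lay in IκBα-WT domains. The 1007 pieces without an IκBα-WT domain held a median of 3 narrower IκBα-WT pieces, which covered a median of 88.5% of their sequence.

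**Figure D1:**
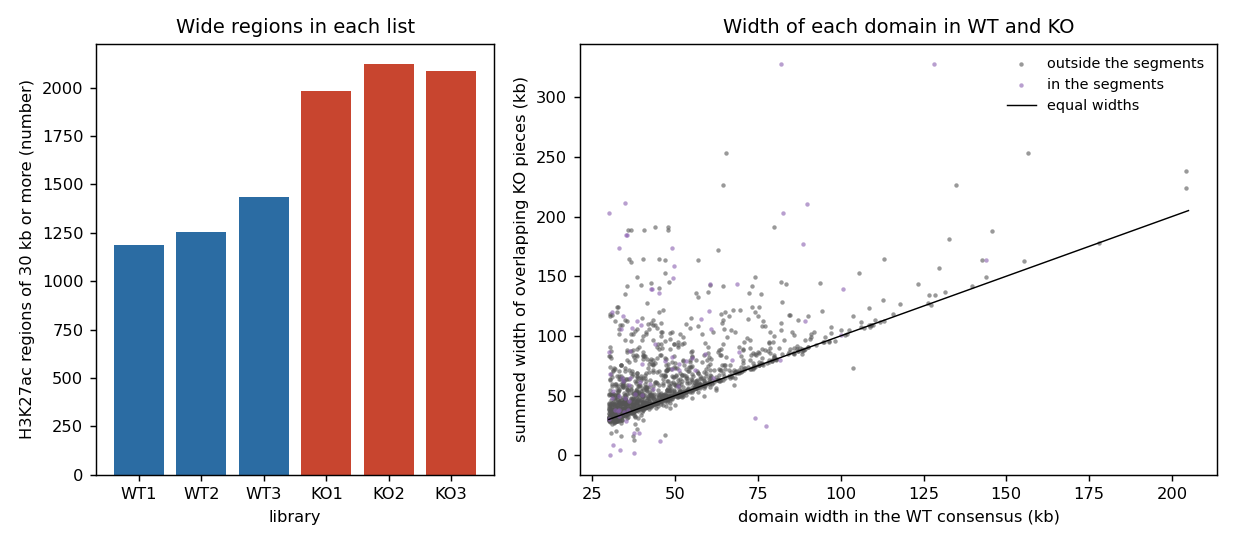
Left, number of H3K27ac regions of 30 kb or more in each list, with the 3 WT libraries between 1189 and 1437 and the 3 KO libraries between 1985 and 2120. Right, each of the 1460 domains by its width in the WT consensus (kb) and the summed width of the KO pieces that touch it (kb), grey outside and purple in the segments, where 1109 points lie above the line of equal widths.

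The domains with the lowest IκBα-KO coverage lay in the segment of chromosome 12. The domain inside Papola, which encodes poly(A) polymerase, was called in no base of the IκBα-KO consensus, and 4.79%, 13.8%, 26.0% and 27.6% of the domains at Klc1, Cep170b, Kif26a and Ccdc85c were. Input reads were fewer there as well, with log2 ratios of −1.22, −1.11, −0.82 and −1.27 for the last 4, and the part of input in the loss was not tested.

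Outside the segments the lowest coverage was at Lef1, which encodes a transcription factor of the Wnt pathway. The domain of 37600 bp in its body was covered to 33.5% and that of 37200 bp over its start to 42.5%. H3K27ac in the latter was 69.7, 67.7 and 73.8 reads per kb in the IκBα-WT lists and 59.9, 63.9 and 51.6 in the IκBα-KO lists, so that all 3 IκBα-KO values lay below. H3K27me3, the Polycomb mark, covered 45.2% of it in the IκBα-WT consensus and 64.0% in that of the IκBα-KO, and input differed by a log2 of −0.08. The domains at Alox5ap (35.7% covered), Car10 (48.5%) and Znrf2 (56.0%) made up the rest of the 5 lowest, with input log2 ratios of −0.59, −0.09 and −0.02.

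H3K27ac reads per kb, averaged over the called sequence of all domains, were 81.1, 84.4 and 88.0 in the IκBα-WT lists and 96.7, 95.9 and 82.3 in the IκBα-KO lists, and the genotypes overlapped. Libraries also differed in density over the 243.6 Mb called in all 6 lists, with 66.8, 69.0 and 71.5 reads per kb in IκBα-WT and 76.9, 76.6 and 65.8 in IκBα-KO. Densities were therefore divided by this common density of their own library, and the quotient is called the scaled density. The difference of the mean log2 scaled densities, IκBα-KO minus IκBα-WT, called the log2 ratio below, had a median of 0.02 over the domains (0.01 outside the segments and 0.36 within them) and a range of −0.76 to 0.78. Its median over all pieces called in all 6 lists was −0.06.

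All 3 scaled densities of the IκBα-KO lay above all 3 of the IκBα-WT in 423 of the 1457 domains called in all 6 lists (29%), against 10.9% of all 35111 pieces so called. They lay below in 295 (20.2%), against 20.2% of all pieces. Outside the segments the counts were 361 and 287, and within them 62 and 8. These counts rest on the scaling: with unscaled reads per kb they were 310 and 55. The choice of members used the same mark, so nothing is read from these shares.

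**Figure D2:**
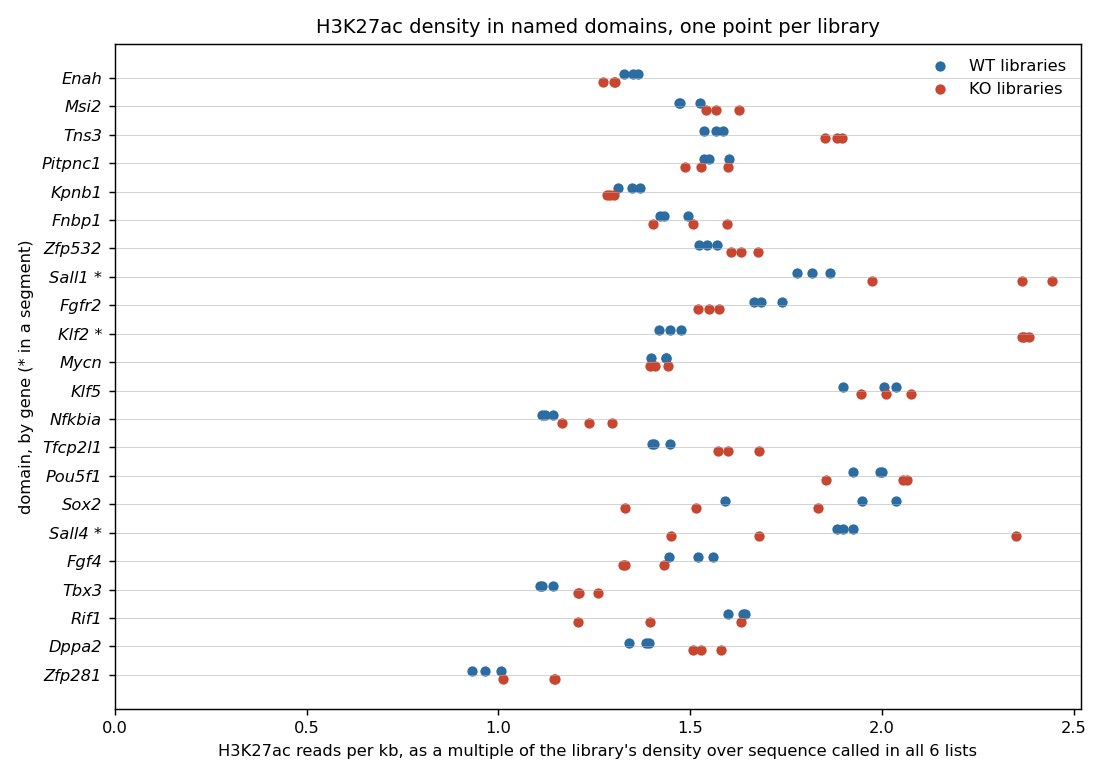
Scaled H3K27ac density (reads per kb as a multiple of the library's density over sequence called in all 6 lists) in 9 of the 10 widest domains, those of 12 pluripotency genes and that of Nfkbia, one point per library, WT in blue and KO in red. An asterisk marks a domain in a segment, where Klf2 and Sall1 have all 3 KO points to the right of all WT points.

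In the 10 widest domains the differences were small. The scaled density at Enah was 1.35, 1.37 and 1.33 in the IκBα-WT lists and 1.30, 1.27 and 1.30 in the IκBα-KO lists, a log2 ratio of −0.06. At Tns3 it was 1.54, 1.57 and 1.59 against 1.88, 1.90 and 1.85, a log2 ratio of 0.26 with an input ratio of −0.05. At Fgfr2 it was 1.67, 1.69 and 1.74 against 1.55, 1.58 and 1.52, a log2 ratio of −0.13. Of the 1457 domains called in all 6 lists 423 lay above and 295 below, and of all pieces so called 10.9% and 20.2%. Of the 10, 4 lay wholly above, 3 wholly below and 3 overlapped. In unscaled reads per kb, only Tns3 of the 7 that lay above or below still did not overlap. Of the 4 above Sall1 lay in a segment, where its log2 ratio was 0.31 and that of input 0.48.

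The domains of pluripotency genes ranged from −0.26 (Sox2) to 0.71 (Klf2). Klf2, on chromosome 8, had scaled densities of 1.42, 1.48 and 1.45 in the IκBα-WT lists and 2.37, 2.38 and 2.37 in the IκBα-KO lists, a log2 ratio of 0.71 beside an input ratio of 0.54. Outside the segments all 3 IκBα-KO values lay above at Tfcp2l1 (log2 ratio 0.19), Zfp281 (0.19), Dppa2 (0.16) and Tbx3 (0.13), and below at Fgf4 (−0.15). With Klf2, 5 of the 12 domains lay above and 1 below. These counts stand beside 423 above and 295 below of the 1457 domains called in all 6 lists. Of all pieces so called, 10.9% lay above and 20.2% below. The domain of Pou5f1, which encodes Oct4, had 1.92, 2.00 and 1.99 against 2.07, 1.85 and 2.06 and overlapped. Sox2 had 1.59, 1.95 and 2.04 against 1.33, 1.52 and 1.83 and overlapped as well. Mycn (−0.01), Klf5 (0.02), Sall4 (−0.09, in the segment of chromosome 2) and Rif1 (−0.21) also overlapped. The unscaled density differed by 0.08 (log2) between the genotypes over the common sequence, so that ratios between −0.08 and 0 turn positive without the scaling. In unscaled reads per kb all 3 IκBα-KO values stayed above at Klf2, Tbx3, Dppa2 and Zfp281, whereas Tfcp2l1 and Fgf4 overlapped.

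In the domain of Nfkbia itself the scaled density was 1.12, 1.14 and 1.11 in the IκBα-WT lists and 1.24, 1.30 and 1.17 in the IκBα-KO lists, a log2 ratio of 0.13 with an input ratio of −0.00. Lists of regions do not resolve exon 1, so the edit itself was not checked by these values. Relb, which encodes an NF-κB subunit, had a log2 ratio of 0.21 with all IκBα-KO values above, although unscaled both Nfkbia and Relb overlapped, and Bcl3, a nuclear relative of IκBα, one of 0.03 with overlap.

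Of 6 domains of DNA methylation genes 2 lay above and 2 below, beside 29% and 20.2% of all domains. Tet2 (0.32) and Uhrf1 (0.17) had all 3 IκBα-KO values above, Dnmt3b (−0.47) and Dnmt3l (−0.09) all 3 below, and Dnmt1 and Tet1 overlapped. For Dnmt3b, which encodes a de novo methyltransferase, the scaled densities were 1.26, 1.29 and 1.33 in the IκBα-WT lists and 0.95, 0.93 and 0.93 in the IκBα-KO lists. The H3K27me3 share of its domain was 27.9% in the IκBα-WT consensus and 40.5% in the IκBα-KO consensus, and the input ratio was −0.10. Of the other lists, 1 of 5 Polycomb genes (Mtf2, 0.05) lay above and 1 (Phc1, −0.18) below, and of 6 housekeeping genes none lay above and 3 (Rpl13a, Rplp0 and Ppia) below. In unscaled reads per kb, of these genes above or below, Tet2 stayed above and Dnmt3b and Rpl13a below, and the others overlapped.

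The most positive ratios, and most of the most negative ones, lay in the segments. On chromosome 8 they were those of Gdf15 (0.78), a stress-induced secreted factor, Klf2 (0.71), the amino acid transporter gene Slc7a5 (0.71), Cnot1 (0.69) and a domain over Gm20388 and Gse1 (0.69), with input ratios of 0.41 to 0.54. The most negative ones in the segments, on chromosome 12, were those of Ppp2r5c (−0.76), the chaperone gene Hsp90aa1 (−0.71), the dynein gene Dync1h1 (−0.69) and the creatine kinase gene Ckb (−0.62), with input ratios of −1.05 to −1.22. Whether fewer DNA copies or less acetylation per copy lies behind such values cannot be told apart from these lists.

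Outside the segments, in a choice made after the values were seen, the highest ratio was at Nrp2, which encodes a receptor for semaphorins and VEGF. Its domain of 43800 bp inside the gene had scaled densities of 1.04, 1.09 and 0.98 in the IκBα-WT lists and 1.64, 1.42 and 1.498 in the IκBα-KO lists, a log2 ratio of 0.55 with an input ratio of −0.03. A domain upstream of Jarid2 (0.51), one at the kinase gene Sik1 (0.51), one over the lamin gene Lmna (0.48) and one inside Osbpl10 (0.43) followed. The domain upstream of Jarid2 had 1.38, 0.84 and 0.83 against 1.38, 1.44 and 1.39. In the IκBα-KO a single piece of 117800 bp spanned it and the neighbouring domain, whose own ratio was −0.10, and the highest IκBα-WT value equalled that of the same list in the neighbouring domain.

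The lowest ratios outside the segments were at Car2, which encodes a carbonic anhydrase. The domain over its start had 1.01, 1.07 and 1.07 in the IκBα-WT lists and 0.66, 0.73 and 0.65 in the IκBα-KO lists, a log2 ratio of −0.63, and a second domain at 101328 bp from that start had −0.51. Input was lower there too, with −0.22 and −0.28. Alox5ap (−0.50), a domain 141493 bp from Snx19 (−0.48) and Dnmt3b (−0.47) followed. Alox5ap and the domain over Hmgb1, both near 149 Mb of chromosome 5, were the only 2 domains outside the segments with an input log2 ratio under −0.5 (−0.59 and −0.64), and the part of input in their values was not tested.

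**Figure D3:**
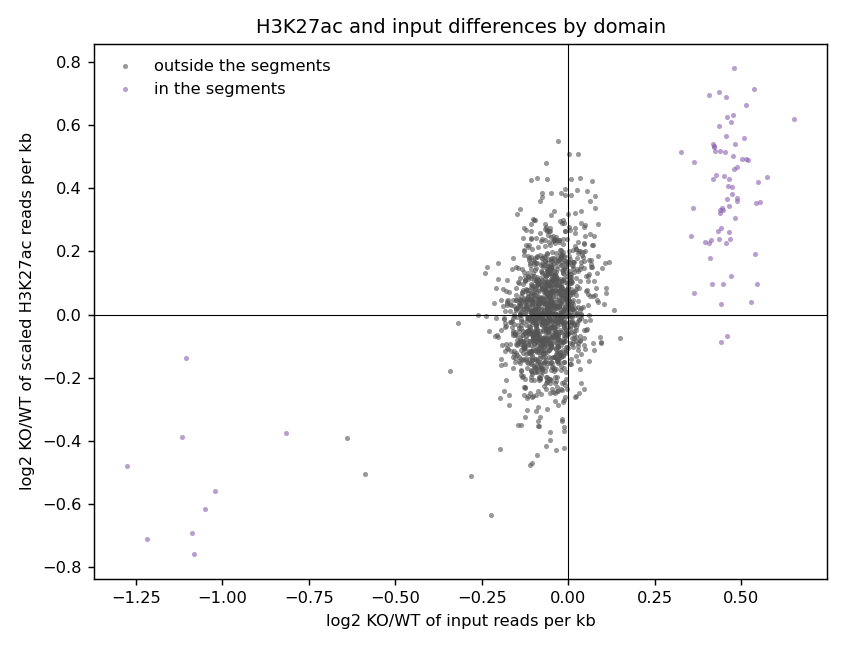
Log2 KO/WT ratio of input reads per kb (horizontal) and of scaled H3K27ac reads per kb (vertical), one point per domain called in all 6 lists, grey outside and purple in the segments. Grey points lie between −0.64 and 0.15 on the input axis, and purple points form separate groups near 0.46 and −1.10.

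H3K4me1 almost filled the domains in both genotypes. It covered 93.4%, 93.6% and 93.4% of the domain bases in the IκBα-WT lists and 93.1%, 92.8% and 92.4% in the IκBα-KO lists. In the consensus of each genotype it was 94.0% and 93.2%, against 83.2% and 81.0% in pieces under 30 kb. The difference was −0.81 percentage points (−0.77 without the segments), and the single lists of the genotypes did not overlap. When a list was left out, both remaining lists had to hold a base, which lowers the share of that genotype. The difference was then 2.04 to 2.15 points without an IκBα-WT list and −3.20 to −3.64 without an IκBα-KO list. The rule fixed the direction of these shifts, so they do not show the effect of a single list. H3K4me1 reads per kb over the domains were 94.1, 93.7 and 93.4 in the IκBα-WT lists and 93.5, 93.4 and 92.7 in the IκBα-KO lists, and overlapped.

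Reads in single H3K4me1 regions were tested with edgeR over all 10899 regions of like length called in all 6 lists. Of these, 1352 had most of their bases in a domain, in 1101 domains. Benjamini-Hochberg adjusted p-values were under 0.05 for 395 regions that rose in IκBα-KO cells (29.2% of the 1352, against 23.4% of all regions tested) and for 329 that fell (24.3%, against 19.9%). Regions in domains had a median width of 42200 bp and those elsewhere 13000 bp, and the part of width in these shares was not tested. Outside the segments 356 rose and 328 fell of 1312, and within them 39 rose and 1 fell of 40. The split rests on the scaling. With library totals in place of trimmed means 232 rose (17.2%, against 16.2% of all regions tested) and 574 fell (42.5%, against 32.5%). The median log2 ratio of all regions tested moved by −0.048 in that setting. A fit with a length offset took in all 44330 regions called in 6 lists. Of 1668 in domains, 413 rose (24.8%, against 7.49% of all 44330) and 38 fell (2.28%, against 0.776%).

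The region that fell most lay over Ppp2r5c, in the segment of chromosome 12. It had 110, 111 and 111 reads per kb in the IκBα-WT lists and 61.5, 59.7 and 59.6 in the IκBα-KO lists, a log2 ratio of −1.001 with a standard error (SE) of 0.02 (edgeR, adjusted p = 2.46e-30), beside an input ratio of −1.06. The 5 that rose most lay in the segment of chromosome 8, at 2810004N23Rik (0.81), Il34 and Sf3b3 (0.79), Slc7a5 (0.78), Ddx19b and Aars (0.75) and Ankrd11 (0.73), with input ratios of 0.36 to 0.50.

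Outside the segments the changes were smaller. Pcmtd1 had 88.0, 83.8 and 85.2 H3K4me1 reads per kb in the IκBα-WT lists and 71.8, 73.6 and 69.2 in the IκBα-KO lists, and fell by 0.44 on the log2 scale (SE 0.03, edgeR adjusted p = 1.36e-13). Its calls also differed in length, the shortest being 0.82 of the longest, and with the length offset it fell by 0.17 (edgeR, adjusted p = 0.00922). Tbl1xr1, which encodes a subunit of a nuclear corepressor complex, had 89.4, 89.5 and 86.3 against 68.2, 64.2 and 65.0 and fell by 0.42 (SE 0.02, edgeR adjusted p = 3.14e-16). A region at Uspl1, near Hmgb1, fell by 0.40 beside an input ratio of −0.62, and a short one nearest to the cytokinesis gene Ect2 fell by 0.40 (SE 0.06).

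Among the regions that rose outside the segments, those with the larger ratios had lengths that differed between libraries. The region at Rad21, a cohesin gene, had 76.6, 74.7 and 78.5 reads per kb in the IκBα-WT lists and 82.9, 83.3 and 86.7 in the IκBα-KO lists, and its reads rose by 0.39 on the log2 scale (SE 0.03, edgeR adjusted p = 1.81e-11), more than its density did, and by 0.235 with the length offset. The same held for the cohesin regulator gene Pds5a (0.36), for Ppp6r3 (0.38) and for Gpr1 (0.36). The shortest calls of these 4 regions were 0.81 to 0.87 of the longest.

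H3K4me3, which took no part in the choice either, differed between the genotypes in the domains. MACS2 peaks of this mark covered 3017, 2890 and 3250 kb of the domains in the IκBα-WT lists and 3799, 4325 and 4523 kb in the IκBα-KO lists, a difference of 38.1% of the IκBα-WT mean (37.7% without the segments) with no overlap. The lists themselves covered 17735, 16853 and 18891 kb in IκBα-WT and 18646, 20967 and 21670 kb in IκBα-KO, so that the share of each list that lay in domains was 17.0%, 17.1% and 17.2% against 20.4%, 20.6% and 20.9%. With the same number of top-ranked peaks from each list, 21283, the difference was 29.2% and the shares were 16.9% to 17.1% against 20.0% to 20.1%. Peaks in domains numbered 3616, 3410 and 3797 against 4665, 5334 and 5531. Their median fold over input was 6.32, 6.33 and 6.70 against 5.93, 5.45 and 5.37, and their median width 612, 653 and 632 bp against 563, 536 and 509 bp.

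By domain, H3K4me3 was present in any list in 1286, and it covered more bp in all 3 IκBα-KO lists than in any IκBα-WT list in 614 of these (47.7%), against 21.8% of the 14417 pieces of any width with H3K4me3. It covered less in 22 (1.71%), against 5.89% of such pieces. Outside the segments the counts were 566 and 18 of 1213. Wider pieces hold more peaks and so more room for a difference, and the part of width in these shares was not tested.

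The difference lay mainly away from gene starts. Peaks within 2.5 kb of a protein-coding 5′ end covered 2214, 2141 and 2296 kb of the domains in the IκBα-WT lists and 2457, 2639 and 2770 kb in the IκBα-KO lists, a difference of 18.3%. Peaks farther away, called distal here, covered 802, 749 and 954 kb against 1342, 1686 and 1753 kb, a difference of 90.8%. Of all distal H3K4me3 of a list, 22.6%, 23.1% and 23.1% lay in domains in the IκBα-WT lists and 31.9%, 31.9% and 32.2% in the IκBα-KO lists (20.9% to 21.5% against 29.5% to 30.0% outside the segments). In pieces of 10 to under 30 kb the shares were 26.2%, 25.9% and 26.7% against 28.7%, 28.7% and 29.1%, and outside the H3K27ac consensus they were 12.4%, 11.8% and 12.2% against 7.83%, 8.37% and 7.85%. The division by distance was made after the data were seen. It used a single annotated 5′ end for each protein-coding gene, so that distal peaks may lie at other starts.

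**Figure D4:**
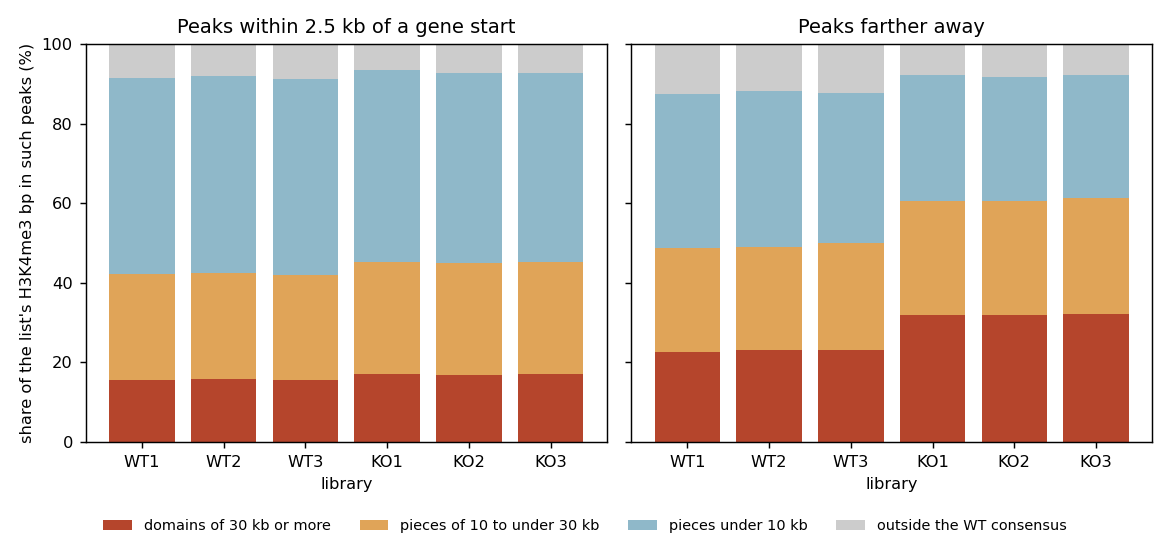
Share (%) of the bp of H3K4me3 peaks in each library that lay in the domains, in narrower H3K27ac pieces and outside the WT H3K27ac consensus, for peaks within 2.5 kb of a gene start (left) and farther away (right). In the right panel the share in domains is 22.6% to 23.1% in the 3 WT libraries and 31.9% to 32.2% in the 3 KO libraries.

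Distal H3K4me3 was found in any list in 1086 domains. It covered more bp in all 3 IκBα-KO lists than in any IκBα-WT list in 432 (39.8%), against 18.4% of the 6973 pieces with distal H3K4me3, and less in 18 (1.66%), against 4.75%. Outside the segments the counts were 398 and 17 of 1027. Domains with a gene start (40.7% of 728) and without one (38.0% of 358) had like shares. The number of domains with a distal peak was 608, 583 and 684 in the IκBα-WT lists and 781, 892 and 915 in the IκBα-KO lists.

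Of the 10 widest domains 9 had more distal H3K4me3 in all IκBα-KO lists than in any IκBα-WT list, and the values of the remaining one overlapped. The share was 39.8% of all domains with distal H3K4me3, and the part of width in this count was not tested. Pitpnc1 had 254, 543 and 289 bp in the IκBα-WT lists, in 1 or 2 peaks, and 4861, 5382 and 7148 bp in the IκBα-KO lists, in 10 or 11 peaks. Fgfr2 had 3145, 2019 and 3423 bp against 6897, 9140 and 10393 bp. Enah had 300, 515 and 310 bp against 1509, 1834 and 4130 bp.

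Of the 12 domains of pluripotency genes 10 had more distal H3K4me3 in all IκBα-KO lists, 2 of these (Klf2 and Sall4) in segments. This stands beside 39.8% of all domains and 18.4% of all pieces with distal H3K4me3. The part of width in this count was not tested. Pou5f1 had 555, 1368 and 1319 bp in the IκBα-WT lists and 2613, 2980 and 2913 bp in the IκBα-KO lists. At Klf5 and Tfcp2l1 no distal peak was listed in IκBα-WT, and the IκBα-KO lists had 235, 1475 and 1413 bp and 276, 693 and 1901 bp. Tbx3, which encodes a T-box factor of naive cells, had 1187, 1788 and 2412 bp against 5337, 2627 and 5344 bp. Sox2, with 3953, 4601 and 4521 bp against 3676, 3299 and 4105 bp, and Rif1 were the 2 whose values overlapped.

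Nfkbia had little H3K4me3 away from its start, with one distal peak of 311 bp in an IκBα-WT list and peaks of 230 bp in 2 IκBα-KO lists. All H3K4me3 of its domain together covered 1226, 1479 and 1523 bp in the IκBα-WT lists and 235, 1050 and 1286 bp in the IκBα-KO lists, and the values overlapped.

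**Figure D5:**
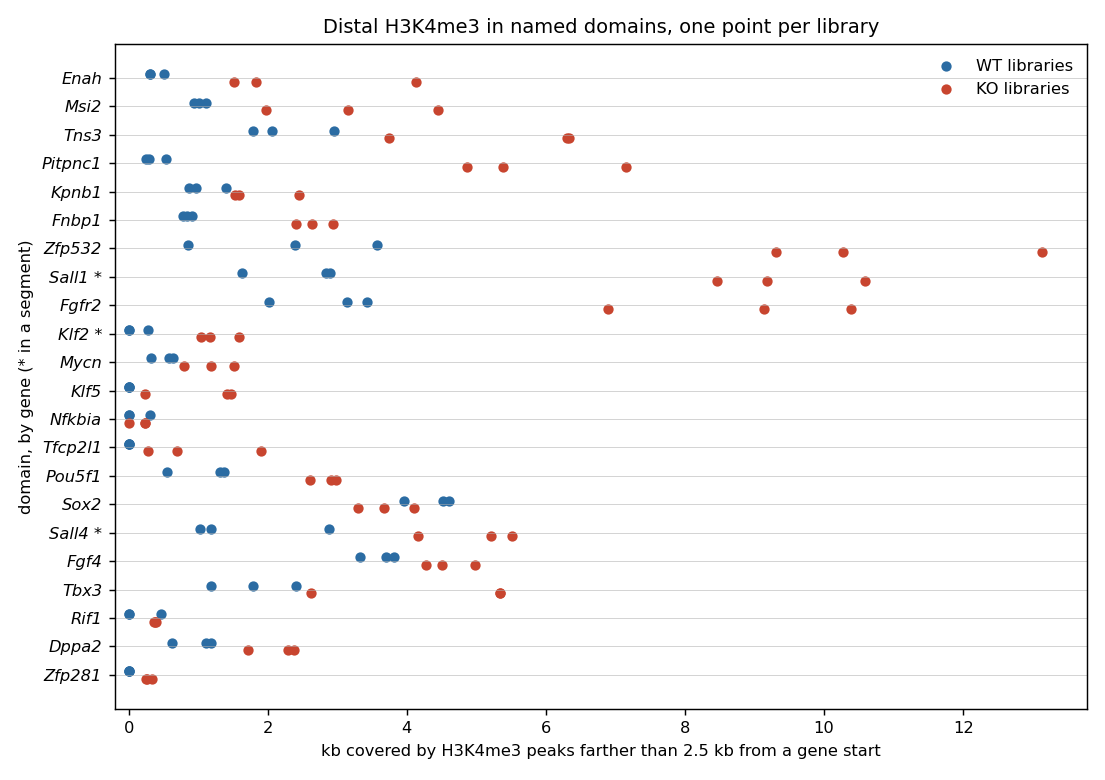
Sequence (kb) covered by H3K4me3 peaks farther than 2.5 kb from a gene start in 9 of the 10 widest domains, those of 12 pluripotency genes and that of Nfkbia, one point per library, WT in blue and KO in red, an asterisk for domains in a segment. All 3 KO points lie to the right of all 3 WT points in these 9 of the widest and in 10 of the 12 pluripotency domains.

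The largest distal differences were picked after the values were seen. In the domain inside Esrrb (chr12:86444801-86524000), which encodes an orphan nuclear receptor of naive mESCs, distal peaks covered 3372, 2671 and 4617 bp in the IκBα-WT lists and 8875, 12454 and 12518 bp in the IκBα-KO lists, in 5 to 8 and 13 to 22 peaks. A domain of 77000 bp with the starts of Ccr4 and Trim71, the latter an RNA-binding protein gene of mESCs, had 4591, 3417 and 5945 bp against 10224, 13339 and 13267 bp. Larger still was the difference at Zfp532, with 2393, 855 and 3575 bp against 9309, 13130 and 10273 bp. Sall1, in the segment of chromosome 8, and a domain of 80000 bp inside the myosin gene Myo10 completed the 5 largest.

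Differences in the other direction were few and smaller. At Trim27, a ubiquitin ligase gene, distal H3K4me3 covered 5375, 5393 and 5115 bp in the IκBα-WT lists and 2442, 3290 and 3294 bp in the IκBα-KO lists, with no overlap. Hsp90aa1, in the segment of chromosome 12 where input was lower, had 3520, 3363 and 3773 bp against 1793, 2432 and 2419 bp. The domain over the start of Lef1 was taken up for its low IκBα-KO coverage, not for the size of its H3K4me3 difference. It had 1475, 1734 and 1374 bp against 637, 1118 and 435 bp, beside its lower H3K27ac.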

How the data were processed

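ChIP-seq had been performed for 5 histone modifications with 3 IκBα-WT and 3 IκBα-KO libraries per modification. For H3K27ac, H3K4me1, H3K27me3 and H3K9me3 the authors deposited 1 epic2 list per library (SICER 0.0.52 in the submitters' processing notes), in steps of 200 bp at a false discovery rate under 0.05, in which every region has counts of ChIP and input reads, a p-value, a log2 fold over input and a score. For H3K4me3 the authors deposited MACS2 2.2.7.1 peaks with a fold over input, −log10 p-values and q-values and a score, and no count. The labels name 1 antibody for H3K27ac and H3K4me1, whereas the methods give another for H3K27ac, and both marks shared 1 input per genotype. Reads of H3K4me3, H3K4me1 and H3K27me3 were mapped with Bowtie2 2.4.4, and the aligner for H3K27ac is not given in the sources used here. The authors' log2 folds and p-values were not used, scores and false discovery rates served only to rank or limit calls in the alternatives, and the fold of H3K4me3 peaks was summarised by its median.

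Reads of a region were spread evenly over its length, and a domain's density was the sum over its called bases divided by their length. Read depth outside called regions is therefore unknown. Genes were those of GENCODE M21 on GRCm38.p6. Merged H3K4me1 regions called in all 6 lists, with the shortest call at least 0.8 of the longest, were compared with edgeR 4.0.16 (R 4.3.3; trimmed mean of M-values, quasi-likelihood, Benjamini-Hochberg adjusted p under 0.05, 3 against 3 libraries, no covariate). The procedure was tested on simulated counts. DESeq2 1.42.0 and other settings were alternatives. Python 3.11.15 with pandas 2.3.3 and numpy 2.4.6 was used for all interval work.

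The domains and gene lists were chosen with earlier results of these data known. Domains named were the 10 widest, those at core and naive pluripotency genes, the narrowest, the 5 lowest by IκBα-KO coverage (813 were tied at the highest, full coverage), the 5 lowest and highest by H3K27ac ratio, and the 5 H3K4me1 regions most raised and most lowered. The split of H3K4me3 by distance, its top-ranked peaks, and the repeats of the named extremes outside the segments were added after the data were seen. Of the domains and regions so chosen, 3 are not reported here.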

Additional observations from a re-analysis of the deposited data

How the results depend on the processing

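The number of domains depended on how the consensus was made. It was 736 when a base had to lie in 3 of 3 IκBα-WT lists, 2280 when gaps of up to 1000 bp were joined, and 852 to 934 when 1 IκBα-WT list was left out, where both remaining lists had to hold a base. The IκBα-KO share of domain bases was 98.0% under 3 of 3 lists, 98.5% without the segments, and 95.9% to 99.2% when 1 list of either genotype was left out. Domains formed without IκBα-WT list 1 were covered to 98.16% by that list and to 98.59%, 98.69% and 98.70% by the IκBα-KO lists. Without list 2 the values were 98.31%, then 98.42%, 98.46% and 98.53%, and without list 3 they were 98.82%, then 98.78%, 98.83% and 98.82%. The median H3K27ac log2 ratio was 0.0944 without scaling (with 55 domains below), 0.0115 with all reads and the full width of overlapping regions, 0.0221 in domains covered over 90% in each list, 0.007 without the segments, and 0.0104 to 0.0205 when 1 list was left out. The H3K4me1 share of domain bases differed by −0.38 percentage points under 3 of 3 lists, and by −3.64 to 2.15 when 1 list was left out. The sign of this difference followed the genotype whose consensus was made from 2 lists.

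Of the H3K4me1 regions in domains, 39 rose and 1 fell when only those in the segments were taken (chosen after seeing the data), 232 rose and 574 fell with library totals, and 38 fell with a length offset. DESeq2 called 323 higher (23.9%, against 18.7% of all regions tested) and 260 lower (19.2%, against 13.6%). The H3K4me3 difference was 18.3% for peaks near gene starts and 90.8% for distal peaks, and 33.1% to 44.9% for all peaks when 1 list was left out. Same-numbered libraries share only a number: deviations of H3K4me1 reads from the group means correlated by 0.0226, −0.0038 and 0.0119, and not every library correlated best with its own number. With the replicate number as a block, 391 regions rose and 330 fell, against 395 and 329. The H3K4me1 share changed sign, and the balance of H3K4me1 calls turned with library totals. Of the values of the main results, 75 kept their direction or moved by less than 1 SD or, for counts, by at most 1.5 times. The other 46 moved further. Among them were most of those for the number of domains, the IκBα-KO share of domain bases and the median H3K27ac ratio. The 176 values of single regions kept their direction and an adjusted p under 0.05. With the length offset, however, Pcmtd1 went from −0.44 to −0.17 and Rad21 from 0.39 to 0.235. The cause of these shifts was not tested, except where fewer lists or regions define the setting. Peak and region lists give no value where nothing was called, which limits all densities.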

Other observations

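Polycomb and heterochromatin marks were also read in the domains. H3K27me3 covered 6.87% of the domain bases in the IκBα-WT consensus and 5.51% in the IκBα-KO consensus, against 15.7% and 14.8% of the pieces under 30 kb. It was found in 597 domains of the IκBα-WT consensus and in 505 of the IκBα-KO consensus, and it covered over 90% of 7 domains in each. The domain of Tbx3 was among the most covered of the pluripotency domains, with 85.4% in IκBα-WT and 69.5% in IκBα-KO. In the domain with Fgf3 and Fgf4 the shares were 45.04% and 38.0%, in that of Sox2 20.5% and 26.5%, and in that of Alox5ap 61.3% and 43.8%, where input was lower in the IκBα-KO. H3K9me3 covered 7.31% and 7.81% of the domain bases, close to its 7.14% and 7.09% in pieces under 30 kb. No test was made of these shares.

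In base composition the domains resembled narrower acetylated pieces more than the genome. G and C made up 47.2% of domain bases, 46.6% of the bases of pieces under 30 kb and 41.9% of chromosomes 1 to 19, and CpG numbered 14.2, 14.1 and 8.51 per kb. The Esrrb motif matched 38.0 times per Mb in domains, 35.1 in narrower pieces and 22.5 over the chromosomes, and the Klf motif 115, 108 and 65.0 times. The octamer matched 48.4, 56.4 and 89.7 times per Mb and the Sox motif 129, 139 and 182 times. The chromosome with the most domains was chromosome 11, with 164, or 10.0 per 100 protein-coding genes, and chromosome 14 had 25, or 2.77 per 100.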
